A study of Mus musculus with 8 samples.

Results

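S100 genes encode small calcium-binding proteins, and 9 of them were examined here in sorted wild-type (WT) and cancer cells from mouse small intestinal organoids. The genes were chosen by symbol (S100a1, S100a4, S100a6, S100a10, S100a11, S100a13, S100a14, S100a16 and S100g), and all 9 were among the 13420 genes of the read count table. Of these, 7 passed the filter on low counts and were tested, together with 5264 tested genes in all, while S100a4 and S100g did not pass and are described by their reads. The study asked what happens to WT intestinal cells that share an organoid with cancer cells. The WT organoids, labelled mTmG and C57BL/6, came by the methods of the study from Rosa26-CreERT2::mT/mG mice and carried membrane-bound tdTomato. The cancer organoids, labelled C57BL/6 (F6), expressed Dendra2 and came from mice with Villin-CreERT2, Apc fl/fl and, as the labels spell it, Tr53 fl/R172H among their alleles. The Villin promoter limits Cre to the intestinal epithelium. Cultures were either pure or mixed at 2 WT to 1 cancer, and on day 3 living single cells were sorted by colour and sequenced in bulk with CEL-Seq, a method that captures the 3′ ends of mRNAs. Each group had 2 libraries, which are called by their wells. Pure WT cells were in wells A01 and A05, their mixed counterparts in A02 and A06, pure cancer cells in A03 and A07, and those from mixed culture in A04 and A08. Whether the 2 wells of a group held separate cultures is not in the labels, so the p-values measure only the spread between these samples, which may be technical.

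S100 proteins carry a pair of EF-hand motifs, the helix-loop-helix fold that holds a calcium ion, and most work as dimers. On binding calcium they expose a surface that docks onto partner proteins, among them the annexins, which attach to membranes. S100a6, S100a10, S100a11, S100a14 and S100a16 are widely found in epithelia, whereas S100g is calbindin-D9k, the vitamin D-dependent protein that carries calcium across the absorptive enterocyte.

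Depth differed widely between libraries, from 73109 reads in A02 to 4733121 reads in A04. Values are given as reads and as CPM, the reads of a gene divided by the scaled library total, and since CEL-Seq reads only the 3′ end, CPM is not divided by gene length. A single read was worth 12.8 CPM in A02 and 0.188 CPM in A04, and 26.1% of the tested genes had no read in A02. Epithelial markers (Epcam, Krt8, Krt18 and Cdh1) were detected in every group, at a summed level of 3297 to 11668 CPM per library. Fibroblast markers, of which 2 of 7 were in the table, summed to 1.77 to 7.04 CPM in pure WT, 0 in mixed WT and pure cancer, and at most 0.377 CPM in mixed cancer. Leukocyte markers, with 2 of 6 in the table, reached at most 2.20 CPM in any library. Because the tags lie at the 3′ end, outside the recombined parts of Apc and the p53 gene, their counts were not used to check the genotypes.

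Together the 9 genes took 0.215% to 0.356% of the reads in pure WT cells and 0.885% to 1.03% in mixed WT cells. In cancer cells they took 1.37% to 1.39% in pure and 1.52% to 1.64% in mixed culture. The 4 groups did not overlap in this share. S100a6, S100a10 and S100a11 made up 87.3% to 93.0% of the S100 reads in each of the 8 libraries. S100a6 alone was 37.6% to 46.0% of them in pure WT, 42.7% to 53.4% in mixed WT, 55.3% to 56.6% in pure cancer and 56.8% to 60.2% in mixed cancer cells. These are bulk samples, so a larger number of cells that express a gene and more of its RNA per cell cannot be told apart.

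**Figure D1:**
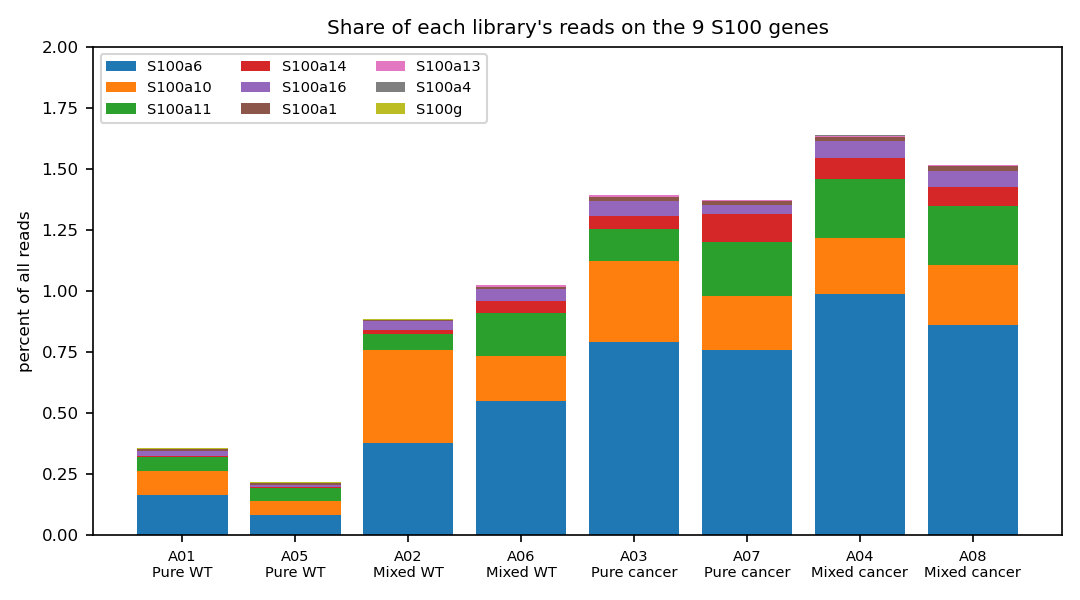
Percent of each library's reads that fell on the 9 S100 genes, stacked by gene, with 1 bar per library and the bars ordered by group. The stacks stand at 0.215% to 0.356% in pure WT and at 1.37% to 1.64% in the 4 cancer libraries, with both mixed WT libraries in between.

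S100a6 (calcyclin), which binds the calcyclin-binding protein Cacybp, had the highest mean level of the members in every group. It lies on chr3:90612882-90624181 (GRCm38, plus strand). Its reads were 1806 and 1544 in pure WT, 276 and 2823 in mixed WT, 1658 and 2535 in pure cancer, and 46668 and 1733 in mixed cancer cells. This corresponded to 1598 and 836 CPM in pure WT, 3532 and 6203 CPM in mixed WT, 8475 and 7336 CPM in pure cancer, and 8786 and 8743 CPM in mixed cancer cells. Both mixed WT libraries lay above both pure WT libraries and below the 4 cancer libraries. On mixing, S100a6 rose in WT cells by 1.99 on the log2 scale (SE 0.41, n = 2 against 2, edgeR adjusted p = 0.0199), from 1217 ± 539 to 4867 ± 1889 CPM (mean ± SD). The RefSeq promoter of this gene (GRCm38.p6, chr3:90612644-90612943, plus strand, 250 bases before to 50 after the start) is shown because S100a6 took the largest share of the S100 reads in 7 of 8 libraries, and it holds none of the 3 motifs searched below, so all its letters are in lower case.
S100a6: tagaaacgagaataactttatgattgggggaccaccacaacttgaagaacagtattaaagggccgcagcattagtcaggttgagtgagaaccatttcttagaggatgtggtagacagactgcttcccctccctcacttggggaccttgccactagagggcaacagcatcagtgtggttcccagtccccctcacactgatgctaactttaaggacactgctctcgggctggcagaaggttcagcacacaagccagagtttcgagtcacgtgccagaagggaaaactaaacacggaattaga

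S100a10 (p11), an S100 protein that has lost calcium binding and pairs with annexin A2 at the plasma membrane, had the next highest mean level in pure and mixed WT and in pure cancer cells, and its range overlapped that of S100a6 in both WT groups. Its level was 953 and 620 CPM in pure WT (1077 and 1145 reads) and 3570 and 2123 CPM in mixed WT (279 and 966 reads). Pure cancer cells had 3588 and 2136 CPM, and mixed cancer cells 2056 and 2492 CPM. Pure WT was lowest without overlap, while the other 3 groups overlapped with each other. On mixing S100a10 rose in WT cells by 1.84 (log2, SE 0.42, n = 2 against 2, edgeR adjusted p = 0.0387). The reads of S100a6 were 0.989 times those of S100a10 in A02 and 1.35 to 4.27 times in the other libraries, so the order of both genes was not the same in every library.

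S100a14, an S100 protein found mainly in epithelia, had the largest fold change of the tested members in WT cells and between genotypes. Pure WT cells had 68 and 57 reads, mixed WT cells 13 and 259, pure cancer cells 110 and 386, and mixed cancer cells 4152 and 157. The levels were 60.2 and 30.9 CPM in pure WT, 166 and 569 CPM in mixed WT, 562 and 1117 CPM in pure cancer, and 782 and 792 CPM in mixed cancer cells. Mixed WT lay above pure WT in both libraries, and its upper library just passed the lower pure cancer library. On mixing S100a14 rose in WT cells by 3.10 (log2, SE 0.56, 8.56-fold, n = 2 against 2, edgeR adjusted p = 0.00933), and the estimate was 1.78 without A06.

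Mixed and pure WT cells therefore differed in 3 of the 7 tested members, S100a6, S100a10 and S100a14, all higher in mixed cells, where 0.741% of all tested genes passed the same threshold and 0.646% passed it upward. All 7 fitted changes were above 0, where 44.8% of all tested genes were, with a median of 1.71 against -0.10 over all tested genes. The groups did not overlap for 6 of the 9 members, and for 43.6% of all tested genes. On rounded transcript counts S100a14 stayed called (edgeR adjusted p = 0.00122), while S100a6 and S100a10 lost their calls (edgeR adjusted p = 0.245 and 0.121). Their log2 changes there were 1.87 and 1.89. None of the 3 calls remained with barcode counts, without pure WT library A05 or without mixed WT library A06. Without A05 the edgeR adjusted p-values were 0.289 for S100a6, 0.376 for S100a10 and 0.0686 for S100a14, at log2 changes of 1.63, 1.62 and 2.69. Without A06 they were 0.227, 0.0796 and 0.282, at log2 changes of 1.43, 2.08 and 1.78. Without A02, the shallow mixed WT library, S100a6 and S100a14 stayed called while S100a10 had an edgeR adjusted p of 0.176.

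The other 4 tested members had positive estimates that did not pass in WT cells. S100a16 had 183 and 98.5 CPM in pure and 320 and 582 CPM in mixed WT, a log2 change of 1.71 (SE 0.48, edgeR adjusted p = 0.123). It passed in 7 of 16 settings, with an edgeR adjusted p of 0.0269 on rounded transcript counts, for example. S100a11 (calgizzarin), a partner of annexin A1, had 568 and 546 CPM in pure WT but 601 and 1951 CPM in mixed WT, so that A02 lay beside pure WT and A06 far above it. Its log2 change was 1.21 (SE 0.46, edgeR adjusted p = 0.333), and it was 1.76 without A02 (edgeR adjusted p = 0.0371) and 0.00527 without A06 (edgeR adjusted p = 1). S100a13, which takes part in the release of growth factors and cytokines that lack a secretion signal, had 22 and 32 reads in pure but 0 and 31 in mixed WT cells. Its 0 reads in A02 allow up to 38.4 CPM, above the 19.5 and 17.3 CPM of pure WT, and its log2 change was 1.30 (95% interval -0.32 to 2.92). S100a1, best known for its action on calcium cycling in muscle, had 64.6 and 53.6 CPM in pure and 64.0 and 94.5 CPM in mixed WT. These groups overlapped, with a log2 change of 0.49 (95% interval -0.66 to 1.65).

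**Figure D2:**
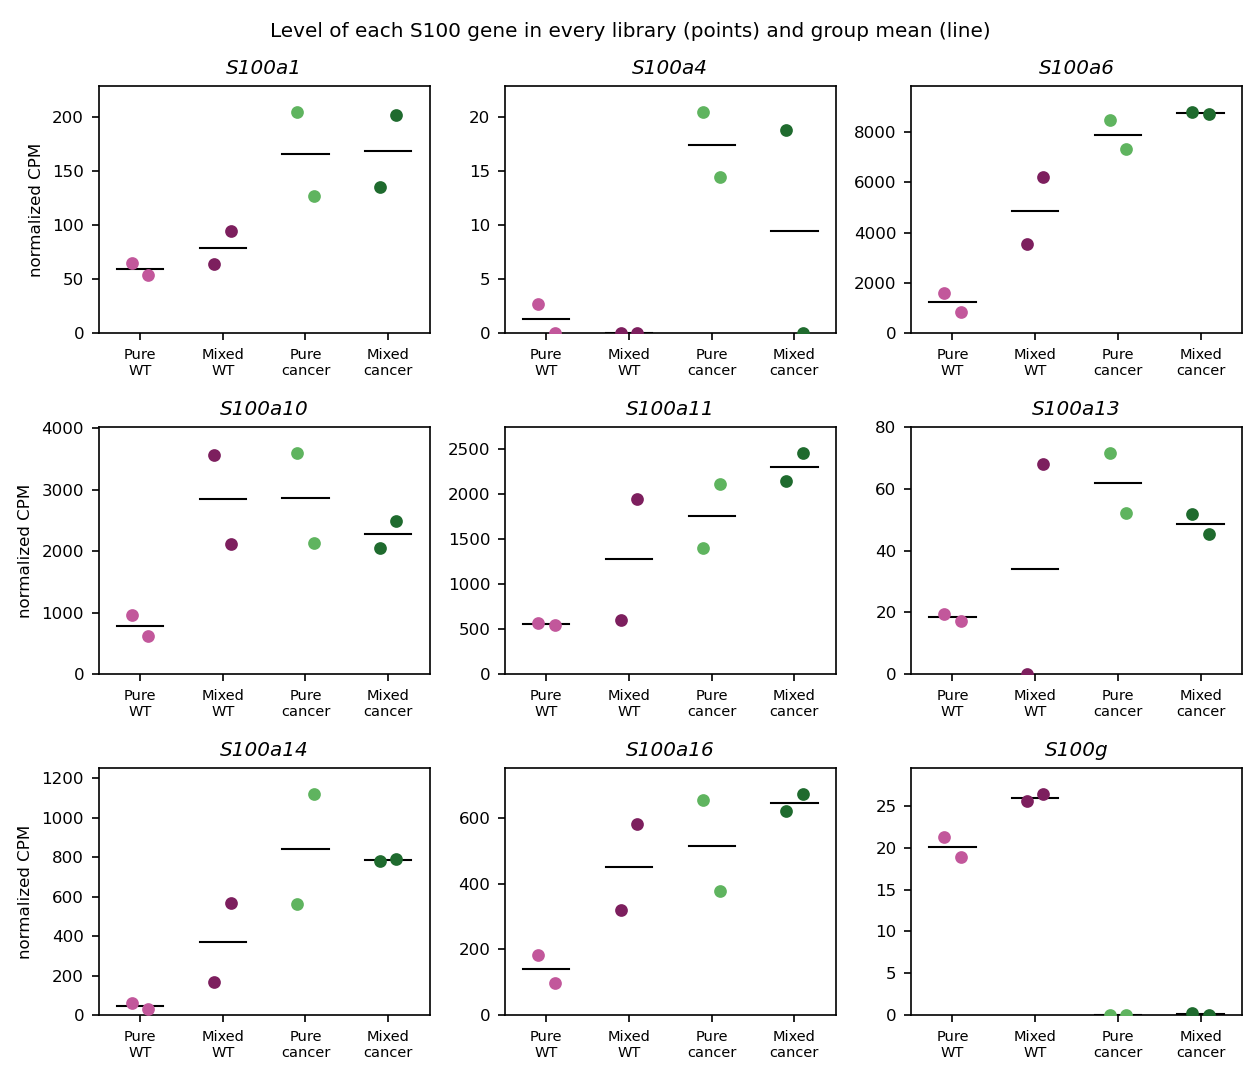
Normalized CPM (linear axis from 0, a separate scale for each gene) of the 9 S100 genes by group, with 1 point per library and a line at the mean of the 2. S100a6, S100a10, S100a14 and S100a16 were above pure WT in both mixed WT libraries, whereas S100a11 was just above it in A02, at 601 CPM, and S100a13 had 0 reads there.

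Mixing was followed by no called change in cancer cells. None of the 7 members passed (0% of all tested genes did), the same held with DESeq2, and none had an unadjusted p under 0.05, against 1.31% of all tested genes. The fitted log2 changes ran from -0.33 for S100a10 to 0.39 for S100a11, with a median of 0.01 for the members and 0.03 for all tested genes. For S100a6 the 95% interval was -0.66 to 0.97, for S100a10 -1.17 to 0.52 and for S100a14 -1.14 to 0.95. Changes inside these intervals are not excluded. The groups did not overlap for 3 of the 9 members (24.8% of all tested genes), namely S100a6, S100a11 and S100a13.

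The change on mixing was then compared between WT and cancer cells in the same fit. No member passed (0.076% of all tested genes did), although 3 members had an unadjusted p under 0.05, a threshold that 7.28% of all tested genes met. S100a14 changed by 3.19 more in WT than in cancer cells (log2, SE 0.75, edgeR adjusted p = 0.165), S100a10 by 2.16 (SE 0.59, edgeR adjusted p = 0.309) and S100a6 by 1.84 (SE 0.56, edgeR adjusted p = 0.417). The difference is thus not shown by the main test. DESeq2 called S100a14 with an adjusted p of 0.0296, and edgeR called it without A01 (adjusted p = 0.00972), A02 (0.00293) or A03 (0.000851) and S100a10 without A07 (0.0311).

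**Figure D3:**
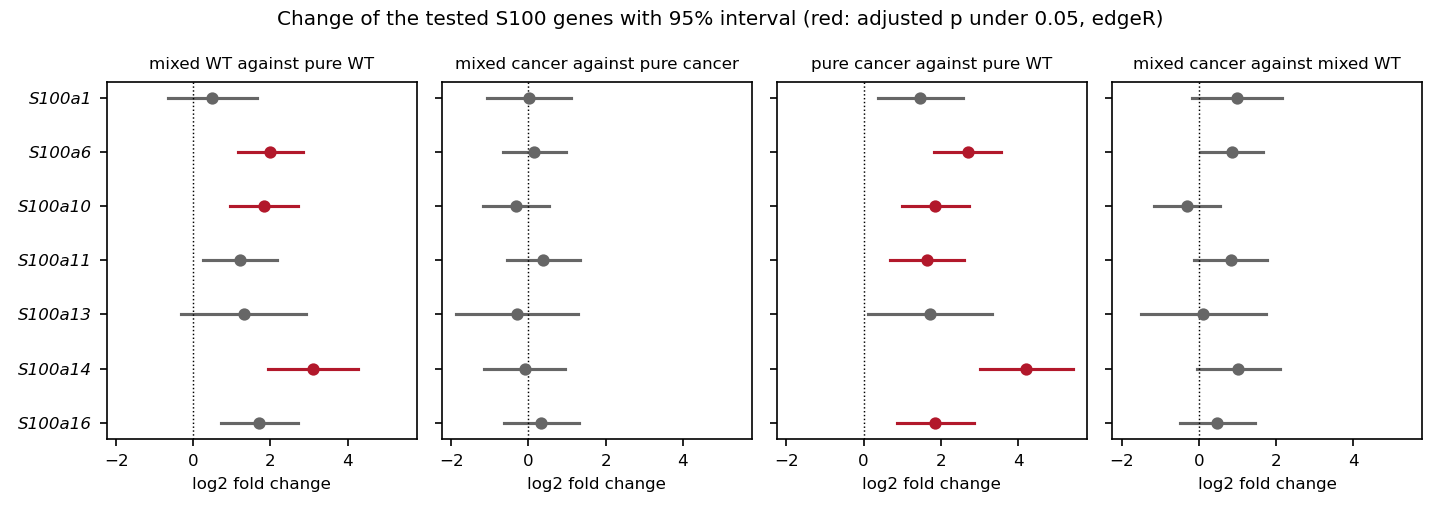
Fitted log2 fold changes (points) with 95% intervals (bars) of the 7 tested S100 genes in 4 comparisons, red where the edgeR adjusted p was under 0.05. On mixing, 3 genes are red in WT cells and none in cancer cells, and 5 are red between pure cancer and pure WT cells.

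In pure culture, cancer cells had higher levels of S100a6, S100a10, S100a11, S100a14 and S100a16 than WT cells, 5 of the 7 tested members, where 9.95% of all tested genes passed the threshold and 5.11% passed it upward. S100a14 was 18.6-fold higher (log2 4.22, SE 0.58, edgeR adjusted p = 2.42e-05, and 3.53 on the log2 scale without A07) and S100a6 was 6.46-fold higher (log2 2.69, SE 0.42, edgeR adjusted p = 0.000107). S100a16 differed by 1.86 (log2, SE 0.48, edgeR adjusted p = 0.0132), with 183 and 98.5 CPM in WT against 654 and 376 CPM in cancer cells. S100a10 differed by 1.85 (SE 0.42, edgeR adjusted p = 0.00457) and S100a11 by 1.65 (SE 0.46, edgeR adjusted p = 0.0227), the latter at 1396 and 2112 CPM in pure cancer cells. S100a1 (204 and 127 CPM in cancer cells, edgeR adjusted p = 0.0893) and S100a13 (71.6 and 52.1 CPM, edgeR adjusted p = 0.198) had estimates of 1.47 and 1.72 that did not pass. Pure cancer and pure WT libraries were apart, without overlap, for all 9 members and for 52.5% of all tested genes. Without A05 the calls were 2, S100a6 and S100a14, and the edgeR adjusted p-values of S100a10, S100a11 and S100a16 were then 0.0625, 0.0677 and 0.196. S100a11 also lost its call without A01 or A07 (edgeR adjusted p = 0.0813 and 0.128), and S100a16 without A03 (edgeR adjusted p = 0.115).

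In mixed culture the same contrast was smaller in value for every tested member. No member passed between mixed cancer and mixed WT cells, where 6.42% of all tested genes did, and 1 member, S100a6, had an unadjusted p under 0.05 (16.4% of all tested genes). DESeq2 also called none of these 7. S100a6 had a log2 difference of 0.85 (SE 0.40, edgeR adjusted p = 0.274), S100a14 of 1.02 (SE 0.52, edgeR adjusted p = 0.335) and S100a10 of -0.31 (95% interval -1.16 to 0.54). The groups did not overlap for 6 of the 9 members (45% of all tested genes). Without A06, S100a11 and S100a14 passed, with edgeR adjusted p-values of 0.0369 and 0.0486. The comparisons of mixed WT and of pure cancer cells with pure WT share A01 and A05, so their changes are set side by side only as values. The mean CPM of mixed WT cells stood 99.2% of the way from pure WT to pure cancer cells for S100a10, 82.9% for S100a16, 60.1% for S100a11, 54.6% for S100a6, 40.6% for S100a14, 36.1% for S100a13 and 18.9% for S100a1. These positions are of group means and carry no error estimate beyond the spread of the 2 libraries per group. The order was not the same in both mixed WT libraries. S100a10 had 3570 CPM in A02 and 2123 CPM in A06, against a pure cancer mean of 2862 CPM. S100a11 had 601 CPM in A02 and 1951 CPM in A06, against a pure cancer mean of 1754 CPM. A difference in position between members is thus not shown.

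S100g was lower in cancer cells in pure culture, where every other member was higher in value. Its reads were 24 and 35 in pure WT, 2 and 12 in mixed WT, 0 and 0 in pure cancer, and 1 and 0 in mixed cancer cells. The level was 21.2 and 18.9 CPM in pure WT and 25.6 and 26.4 CPM in mixed WT, close to each other though mixed WT rests on 14 reads. In pure culture it was at least 3.58-fold higher in WT cells, computed against 3 reads over the pure cancer group. In mixed culture the pooled ratio of WT to cancer was 145 (95% counting interval 22.0 to 6116, from 14 reads and 1 read). This ratio rests mainly on A06, with 12 of the 14 WT reads, and on the deep cancer library A04. The 0 reads in A08 allow up to 15.1 CPM, against 25.6 and 26.4 CPM in mixed WT. When the filter was left out, S100g passed in mixed culture (edgeR adjusted p = 0.00282) and not in pure culture (edgeR adjusted p = 0.0694), and DESeq2 called it in mixed culture only. The gene lies on the minus strand of the X chromosome (chrX:162961992-162964599, GRCm38) and overlaps Ctps2 on the opposite strand, and whether reads were assigned by strand is not given in the sources used here. The capitals in its RefSeq promoter (GRCm38.p6, chrX:162964550-162964849, minus strand) mark a TATA box match at the annotated start itself, shown because S100g is the member limited to WT cells in these counts apart from 1 read.
S100g: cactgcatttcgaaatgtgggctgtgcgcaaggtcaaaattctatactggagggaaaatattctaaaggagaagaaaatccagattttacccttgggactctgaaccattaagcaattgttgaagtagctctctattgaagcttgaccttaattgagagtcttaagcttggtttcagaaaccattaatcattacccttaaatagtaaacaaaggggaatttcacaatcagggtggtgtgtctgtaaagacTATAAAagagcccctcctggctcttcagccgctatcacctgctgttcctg

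S100a4 (metastasin), which binds non-muscle myosin and is known from motile cells, was near the limit of detection. Pure WT cells had 3 and 0 reads, mixed WT cells 0 and 0, pure cancer cells 4 and 5, and mixed cancer cells 100 and 0. Both pure cancer libraries lay above pure WT, with a ratio of 16.5 (95% counting interval 4.12 to 94.8, from 9 and 3 reads). All 100 reads in mixed cancer came from A04, at 18.8 CPM, and 0 reads in A08 allow up to 15.1 CPM. No fold is given for mixed culture, since 1 library holds all its reads, and neither contrast passed when the filter was left out (edgeR adjusted p = 0.138 in pure and 0.297 in mixed culture). Of the 50-base windows in the last 500 bases of its coding transcripts, 47.4% also occur in the overlapping gene Gm42674, so its reads could have been split or discarded. The capitals in the RefSeq promoter of S100a4 (GRCm38.p6, chr3:90603520-90603819, plus strand) mark a TATA box match that begins 31 bases before the start.
S100a4: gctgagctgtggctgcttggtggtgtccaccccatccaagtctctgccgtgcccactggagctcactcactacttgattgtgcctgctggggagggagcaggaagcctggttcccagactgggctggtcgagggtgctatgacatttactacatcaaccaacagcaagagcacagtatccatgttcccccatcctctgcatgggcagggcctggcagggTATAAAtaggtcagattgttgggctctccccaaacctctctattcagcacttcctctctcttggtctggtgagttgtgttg

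Few genes that act with S100g in calcium uptake passed the filter. Of 12 listed genes of intestinal calcium uptake and vitamin D response 7 were in the table and 3 were tested. Vdr, the vitamin D receptor, was at 184 and 634 reads when WT cells were pure and at 0 and 41 when they were mixed, with 0 and 0 in pure and 3 and 1 in mixed cancer cells. It was lower in cancer than in WT cells in pure culture (edgeR adjusted p = 0.000166) and in mixed culture (edgeR adjusted p = 0.00143, not called by DESeq2), and did not pass between mixed and pure WT (edgeR adjusted p = 0.293). The median log2 change of the 3 genes was -0.31 between mixed and pure WT cells, where that of all genes was -0.10.

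Beside these genes, markers of differentiated intestinal cells separated WT from cancer cells. The 10 enterocyte markers summed to 1835 to 2027 CPM in pure WT and 1793 to 1919 CPM in mixed WT, compared with 66.6 to 86.9 CPM in pure and 80.7 to 131 CPM in mixed cancer cells. Of the 8 tested, 6 were lower in cancer cells in pure and 7 in mixed culture, and none passed between mixed and pure WT. The 5 enteroendocrine markers summed to 242 to 460 CPM in pure WT and 521 to 537 CPM in mixed WT, and to 0 in pure and at most 1.32 CPM in mixed cancer cells, with 4 of 4 tested genes lower in cancer cells in both cultures. Goblet markers summed to 2575 to 2704 CPM in pure WT, 2175 to 3498 CPM in mixed WT, 787 to 1084 CPM in pure cancer and 437 to 777 CPM in mixed cancer cells, with 2 of 3 tested genes lower in cancer cells in both cultures. Of 3 tested Paneth markers, 2 were lower and 1, Mmp7, was higher in cancer cells in both cultures, and Paneth markers summed to 954 to 2037 CPM in pure and 397 to 778 CPM in mixed WT. Of 5 tested stem cell markers, 2 were lower in pure cancer cells, while in mixed culture Smoc2 was lower and Axin2 was higher in cancer cells, and the stem cell sums were 468 to 688 CPM in pure WT and 253 to 320 CPM in mixed WT. Of the 4 epithelial markers, Krt8 was lower in mixed cancer than in mixed WT cells. With edgeR or DESeq2 none of these lists held a called gene between mixed and pure WT or between mixed and pure cancer cells. At an unadjusted p under 0.05 there were 2 enterocyte, 3 stem cell, 1 Paneth and 1 epithelial gene between mixed and pure WT cells. Over all 5264 tested genes, 509 met that threshold there. Between mixed and pure cancer cells there was 1 stem cell gene, where 1.31% of all tested genes met it. The part that these cell types, or RNA of cancer cells among the sorted mixed WT cells, have in the higher S100 levels of mixed WT cells was not tested, and the summed enterocyte and enteroendocrine markers of mixed WT were as given above.

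Annexins and other partners of S100 proteins showed called changes of their own. Of 18 listed partners 16 were in the table and 11 were tested. Anxa1, the annexin that binds S100a11, was called higher in mixed WT cells (log2 2.47, SE 0.54, edgeR adjusted p = 0.0294), at 17.7 and 47.6 CPM in pure and 115 and 235 CPM in mixed WT. With edgeR it was the only one of the 11 called there, where 0.741% of all tested genes were. DESeq2 also called Anxa2 (log2 1.84 and adjusted p = 0.0734 with edgeR). In pure cancer against pure WT cells, 4 of the 11 were higher, where 5.11% of all tested genes were. Among them were Anxa1 (log2 4.07, edgeR adjusted p = 2.21e-05), Anxa6 (2.51, edgeR adjusted p = 0.0200) and Anxa2 (3.18, edgeR adjusted p = 9.97e-05). The 1 lower partner was Trp53 (log2 -2.56, edgeR adjusted p = 0.0323), the p53 gene, which is altered by design in the cancer line. Anxa2, the partner of S100a10, stood at 438 and 154 CPM in pure WT, 704 and 1397 CPM in mixed WT, and 2622 to 2948 CPM in the 4 cancer libraries. Its mixed WT libraries thus lay below the pure cancer libraries, whereas those of S100a10 overlapped with them. Mixed WT and pure cancer cells were not compared by a test. Between mixed cancer and mixed WT cells Anxa2 did not pass (log2 1.41, edgeR adjusted p = 0.0761). In mixed culture 1 of the 11, Anxa6, was called higher in cancer cells (log2 2.70, edgeR adjusted p = 0.0414), where 6.42% of all tested genes passed. Mixed WT cells had 0 reads of Anxa6 in A02, which allow up to 38.4 CPM, and 10 reads in A06. Mixed cancer cells had 110 and 106 CPM. The partners had a median log2 change of 0.08 between mixed and pure WT cells and of 0.89 between pure cancer and pure WT cells, against -0.10 and -0.05 over all tested genes.

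Other EF-hand proteins had no called gene between mixed and pure WT cells. Of 34 such genes, all in the table, 26 were tested and 0 passed there with edgeR or DESeq2. At an unadjusted p under 0.05 there was 1, against 509 of all 5264 tested genes. The median log2 change of these EF-hand genes was 0.28, and the smallest p belonged to Capn2, a calpain subunit (edgeR adjusted p = 0.376). In pure cancer cells 2 of the 26 were higher, Tesc (log2 5.30, edgeR adjusted p = 0.00316) and Calu (2.64, edgeR adjusted p = 0.0246). Of all tested genes 9.95% passed there and 5.11% passed upward. Tesc had few reads, 2 and 1 in pure WT against 12 and 11 in pure cancer cells. In mixed culture 2 of the 26 were lower in cancer than in WT cells, where 6.42% of all tested genes passed in either direction. They were Sri (-2.35, edgeR adjusted p = 0.00106) and Calml4 (-2.98, edgeR adjusted p = 0.00246), a calmodulin-like protein of the intestinal brush border. With edgeR no EF-hand gene and no S100 partner passed between mixed and pure cancer cells (0 at an unadjusted p under 0.05, and 0 with DESeq2) or for the difference between the changes on mixing (1 and 3 at an unadjusted p under 0.05), for which DESeq2 called Anxa1. Further S100 genes in the table were nearly absent, with S100a2, S100a3, S100a5, S100a7a, S100a8 and S100z at 2 to 6 reads in total over the 8 libraries.

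Barcode saturation limited how the abundant members could be counted as molecules. Each molecule had received a random barcode, and no gene in any library reached more than 256 different barcodes, the number of sequences that 4 bases can form. In A04, S100a6, S100a10 and S100a11 were each at all 256 barcodes, although their reads were 46668, 10921 and 11377. All 3 were then given the same 3182 transcripts, so that the ratio of S100a6 to S100a10 in A04 was 4.27 in reads and 1 in barcodes and in transcripts. S100a14 and S100a16 reached 255 and 254 barcodes there. S100a6 was at 90% or more of the barcodes in 7 of 8 libraries, with 242 and 240 in pure WT, 93 and 253 in mixed WT, 239 and 251 in pure cancer and 256 and 242 in mixed cancer cells. Its barcode counts stood at 239 to 242 in A01, A05, A03 and A08, where its reads were also close, at 1544 to 1806. Its CPM ran from 836 to 8743 in these libraries, whose totals ran from 201137 reads in A08 to 1905693 in A05. The CPM range there therefore does not measure saturation. Near the top of the scale the transcript estimate is coarse, since the step from 255 to 256 barcodes multiplied it by 2.25.

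**Figure D4:**
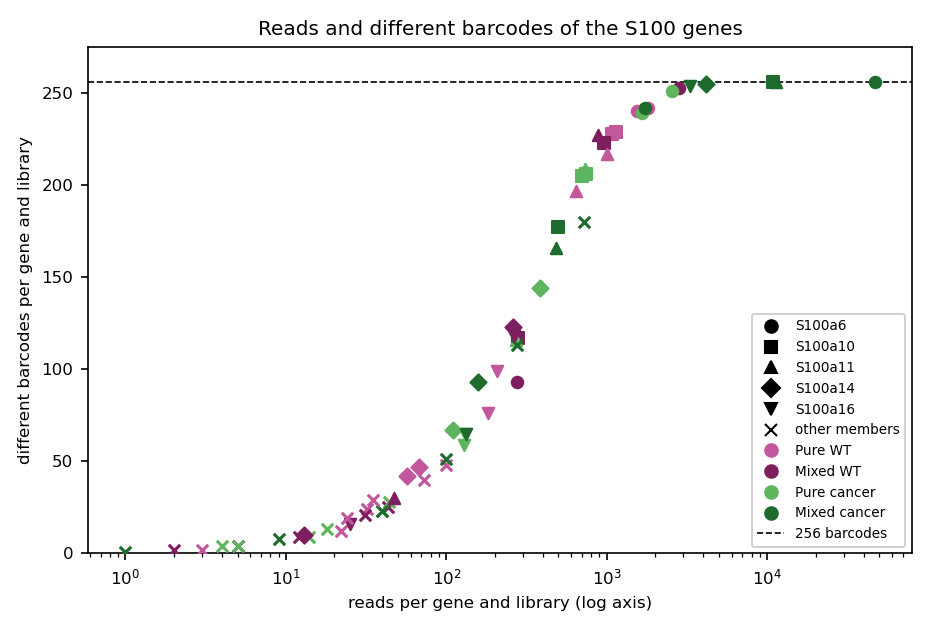
Different barcodes against reads (log axis) for each S100 gene and library with at least 1 read, with the symbol giving the gene and the colour the group. The dashed line marks 256 barcodes, which S100a6, S100a10 and S100a11 reached in mixed cancer library A04, and S100a6 lay above 230 in 7 of 8 libraries.

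On barcode counts in place of reads several calls were lost, with estimates of the same sign and larger standard errors for the members that lost them. In pure cancer against pure WT cells, the log2 difference on barcode counts was 2.13 for S100a6 (SE 1.45, edgeR adjusted p = 0.395), 1.96 for S100a10 (SE 1.37, edgeR adjusted p = 0.411), 1.68 for S100a11 (SE 1.09, edgeR adjusted p = 0.369) and 1.57 for S100a16 (SE 0.65, edgeR adjusted p = 0.0910), while S100a14 stayed called (log2 3.22, edgeR adjusted p = 0.000698) and S100a1 became called (1.29, edgeR adjusted p = 0.0167). In mixed against pure WT cells, S100a6, S100a10 and S100a14 had log2 changes of 2.04, 2.30 and 2.39 on barcode counts, with edgeR adjusted p-values of 0.574, 0.528 and 0.0786. The part of the barcode limit in these lost calls was not tested. In mixed against pure cancer cells, S100a6 had a log2 change of 0.15 on reads and -0.61 on barcodes, neither of which passed. Read counts have no such ceiling, but they include copies from amplification. The number of reads per barcode of S100a6 was 182 in A04 and 2.97 to 11.2 in the other libraries. At or near all 256 barcodes, as in A04, this number does not measure copies per molecule. Members with fewer barcodes in A04 had 1.96 (S100a4), 2.43 (S100a13) and 3.98 (S100a1) reads per barcode.

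S100a11 may carry a further limit, since 42.1% of its 50-base windows in the last 500 bases occur also in processed pseudogenes, and the authors discarded reads that mapped equally well to several places. The windows were searched in GENCODE, whereas the authors aligned to RefSeq. Neither these pseudogenes nor Gm42674 were in the count table, so whether reads were lost in this way is not known. None of the other members, apart from S100a4, shared a window with another gene. The promoter of S100a11 (RefSeq, GRCm38.p6, chr3:93520246-93520545, plus strand) is printed because it holds a pair of AP-1 matches, given in capitals. The motifs searched on both strands were AP-1 (TGACTCA or TGAGTCA), TEAD (GGAATG or CATTCC) and the TATA box (TATAAA or TTTATA), which do not overlap one another in these promoters. The matches begin 136 and 38 bases before the start. The AP-1 letters occur in 5.2% of 32851 RefSeq promoters of this length and at least 2 times in 0.222%, the TEAD letters in 14.7% and the TATA letters in 13.6%. Of the 9 members 7 had a promoter in this set, S100a16 with 2, and those of S100a1, S100a6, S100a13 and S100a16 held none of these letters. S100a10 and S100a14 had none in this set.
S100a11: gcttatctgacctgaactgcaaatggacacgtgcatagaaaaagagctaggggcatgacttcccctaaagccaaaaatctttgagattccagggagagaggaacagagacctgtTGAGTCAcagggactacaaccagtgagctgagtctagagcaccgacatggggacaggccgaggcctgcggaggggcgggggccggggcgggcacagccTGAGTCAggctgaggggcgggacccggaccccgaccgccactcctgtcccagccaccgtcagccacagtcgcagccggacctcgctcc

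Except for S100g, the members lie close together on chromosome 3. S100a1, S100a13, S100a14, S100a16, S100a4 and S100a6 span 113.1 kb (chr3:90511034-90624181), and S100a11 and S100a10 span 44.2 kb (chr3:93520488-93564643), with 2896.3 kb between both groups of genes. The RefSeq starts of S100a1 and S100a13 lie 105 bases apart on opposite strands. From 250 kb before the first to 250 kb after the last of these genes, 24 genes outside the S100 family were in the table and 6 were tested. With edgeR or DESeq2 0 of the 6 passed in any of the 5 comparisons. An unadjusted p under 0.05 was found for 2 between mixed and pure WT cells, where 509 of all 5264 tested genes had one. Between mixed cancer and mixed WT cells it was found for 1, and for 16.4% of all tested genes. Over the 8 libraries, which share group and depth, log2 CPM of the 21 pairs of tested members had a median Pearson r of 0.83, from -0.03 to 0.98 for S100a6 and S100a14. Among 2744 genes with a mean of at least 50 reads, the gene most like S100a6 was Egln3 (r = 0.986) followed by Anxa2 (0.985), that most like S100a14 was Ly6a (0.989), and that most like S100a11 was Bok (0.993). For S100a16 it was S100a6 (0.971), for S100a10 Kif3a (0.975), for S100a13 Camk2n1 (0.983) and for S100a1 D17Wsu104e (0.972). These correlations describe 8 libraries in 4 groups and were not tested.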

How the data were processed

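Sorted pure and mixed WT and cancer cells were profiled by CEL-Seq, with 2 libraries per group grouped by their labels. A further allele of the cancer line is not reported here. According to the methods of the study, the authors aligned read 2 to the mm10 RefSeq transcriptome with BWA, discarded reads with several equal matches and counted with featureCounts, whose versions are not given in the sources used here. They deposited read counts per gene, barcode counts per gene, and estimated counts of transcripts made from the barcodes, all without normalization. A deposited DESeq2 1.22.2 table (mean, log2 fold change, standard error, statistic and p-values) was not used. After leaving out 2 entries that are not mouse genes, with 1 read in all, 13420 genes remained.

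Read counts were fitted with edgeR 4.0.16 in R 4.3.3, with all 8 libraries in a single quasi-likelihood fit, filterByExpr at a minimum count of 10 and TMM factors. The threshold was an adjusted p of 0.05 (Benjamini-Hochberg over 5264 genes), and standard errors were derived from the F statistic. Depth was 73109 to 4733121 reads, and a floor is 3 reads. Intervals of ratios and floors cover counting error only. Named genes were all members, and up to 3 called genes per list and comparison, or else the gene with the smallest p. Lists were S100 partners, calcium uptake and vitamin D response, other EF-hand proteins, and markers of enterocytes, stem, Paneth, goblet and enteroendocrine cells, fibroblasts, leukocytes and epithelium. The levels and test of Anxa2 in mixed culture and the name and values of Trp53 were added after the values were seen. The members and lists were chosen with earlier results of these data known. Likeness was Pearson r of log2 CPM (prior count 2). Positions and shared windows came from GENCODE vM21 (GRCm38, the same assembly as mm10), and promoters from RefSeq (GRCm38.p6). The fits were tested on simulated data.

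Alternatives were barcode counts, transcript counts rounded to whole numbers, upper-quartile or median-of-ratios factors, a minimum count of 50 or no filter, DESeq2 1.42.0, a fit of only the 4 libraries compared, and each library left out in turn.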

Additional observations from a re-analysis of the deposited data

How the results depend on the processing

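Of 548 fitted values of members under 19 alternative settings, 486 kept their direction and side of the threshold, 22 lost and 19 gained a call, and 21 changed sign. Members called between mixed and pure WT cells were 3, and 0 with barcode counts and 0 to 4 with a library left out. Between pure cancer and pure WT cells they were 5, with 2 on barcode counts and 2 to 5 with a library left out. For the difference between the changes on mixing, 0 became 1 on transcript counts, with no filter and with DESeq2, and 0 to 1 with a library left out. Between mixed cancer and mixed WT cells, 0 became 1 with no filter and with DESeq2, and 0 to 2 with a library left out. Between mixed and pure cancer cells it was 0 in every setting run. Sign changes in mixed against pure cancer cells were -0.25 for S100a1, -0.61 for S100a6, -0.43 for S100a11 and -0.29 for S100a16 on barcode counts, -0.20 for S100a1 and -0.55 for S100a6 on transcript counts, and -0.00593 for S100a1 with upper-quartile factors. In mixed cancer against mixed WT cells, barcode counts gave -0.52 for S100a6, -0.050 for S100a11 and -0.31 for S100a16. In A04, S100a6 and S100a11 stood at the ceiling of 256 barcodes, and the cause was not tested. With a library left out, mixed against pure cancer cells ranged from -0.25 to 0.37 for S100a1, -0.59 to 0.086 for S100a10 and -0.51 to 0.56 for S100a14. The difference between the changes on mixing ranged from -0.000484 to 0.71 for S100a1, -0.38 to 1.37 for S100a11 and -7.31 to 2.13 for S100a13. Mixed cancer against mixed WT cells ranged from -0.58 to 0.092 for S100a10 and -0.46 to 9.00 for S100a13. For S100a13, mixed against pure WT cells ranged from -7.61 to 1.84, and the lowest value rests on A02 alone, where it had 0 reads and the fit depends on the prior count. None of these values that changed sign passed the threshold. Among all tested genes, calls between mixed and pure WT cells were 39, and 93 with barcode counts, 82 with transcript counts, 68 with no filter, 66 with DESeq2, 108 with the 4 WT libraries, and 2 (without A06) to 118 (without A07) with a library left out, where the lone library is assumed to vary like the other groups. Without A06 the median of all genes moved to -0.73 in that comparison. For the difference, 4 calls became 1 to 32 with a library left out, 10 on transcript counts or with no filter, 13 with DESeq2 and 23 on barcode counts. Calls between pure cancer and pure WT cells fell from 524 to 232 at a minimum count of 50 and to 314, 261 and 342 without A01, A05 and A07, and between mixed cells from 338 to 151 at that minimum and to 167 and 220 without A04 and A06. No paired analysis was run, because the labels give the groups no shared replicate numbers. A block by the order of the wells, which the labels do not tie together, was not fitted. Mixed WT and mixed cancer cells were sorted by colour from mixed cultures. Whether libraries of both groups came from the same culture is not in the labels, and the fit treated all libraries as separate.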
